A study of Mus musculus with 24 samples.

Results

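The genes described here are 9 receptors and secreted products by which M2-type macrophages, also called alternatively activated, are commonly recognised in the mouse: the receptors Mrc1, Cd163, Clec10a, Mgl2, Cd209a and Folr2 and the secreted Retnla, Chil3 and Ccl24. They were chosen by symbol, matched to the Ensembl identifiers of the count tables, and are 9 of 54232 genes listed there; all 9 had enough counts to be tested among 18978 genes. Expression was measured by RNA sequencing of wound tissue from the back skin of male db/db mice, C57BLKS/J animals of the genotype Lepr (db/db) that lack working leptin receptor and become obese and diabetic. Every animal, controls included, carried that genotype and received a 6 mm punch wound at 16 weeks and an alginate bandage renewed on day 3, and the tissue was collected on day 10, with a labelled age of 17.5 weeks. The bandage was loaded with medium in which primary macrophages had been kept: 4 wounds received that of M0 cells (CM0), 4 that of M1 cells (CM1), 5 that of M2a cells (CMA) and 5 that of M2c cells (CMC), and 6 a control bandage (Ctrl). The labels name no stimulus for these states, and no wound of a mouse with a working leptin receptor is among the groups. The macrophages of the culture dish were not sequenced, so every value below is a level in the wound.

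Alternative activation is the state that macrophages take up when IL-4 or IL-13 bind a receptor containing the product of Il4ra and activate the transcription factor STAT6. In mouse macrophages this raises Mrc1, Retnla, Chil3, Clec10a, Mgl2, Cd209a and Ccl24. The haemoglobin scavenger receptor CD163 answers rather to IL-10 and glucocorticoid, the stimuli tied to the M2c state, and the folate receptor gene Folr2 marks resident macrophages along vessels. Several of these genes are also used outside macrophages, Mrc1 in lymphatic endothelium, Chil3 in neutrophils and their precursors, and Mgl2 and Cd209a in dermal dendritic cells. In a healing wound such macrophages follow the early inflammatory ones and take part in matrix deposition and resolution, a passage that is slow in diabetic mice.

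The 24 libraries held between 7267879 and 11985292 counts each, and levels are given as CPM, counts scaled to a common library size with the trimmed mean of M-values. Markers of the labelled tissue were present in every library: the basal keratin gene Krt14 lay between 1329 and 4612 CPM, the collagen gene Col1a1 between 20612 and 40273 CPM, and Csf1r, the receptor gene that marks macrophages, between 289.5 and 593 CPM. The labels number no replicates and do not say that each library is a separate mouse, so p-values measure the spread between libraries; libraries are numbered here in deposit order. Because whole tissue was sequenced, more cells that carry a gene and more RNA per cell cannot be told apart in any value below.

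A promoter sequence stands first for 4 of the genes, because Retnla, Mgl2 and Cd209a varied together over the wounds, while the correlation of Chil3 with each of the 3 missed the threshold. The windows run from 250 bases before to 50 bases after the gene start of RefSeq on GRCm38.p6, which held a window for 7 of the 9 genes. That start is not always the one in the annotation from which gene positions are given below, and lies further downstream for Retnla and Mgl2. Capitals mark a STAT6-type site, which is TTC and GAA with either 4 or 3 bases of any kind between them; both spacings were searched on both strands, on which they read the same. The windows lie at chr16:48842359-48842658 on the plus strand for Retnla, chr3:106167515-106167814 on the minus strand for Chil3, chr11:70130107-70130406 on the plus strand for Mgl2 and chr8:3748935-3749234 on the minus strand for Cd209a.
Retnla: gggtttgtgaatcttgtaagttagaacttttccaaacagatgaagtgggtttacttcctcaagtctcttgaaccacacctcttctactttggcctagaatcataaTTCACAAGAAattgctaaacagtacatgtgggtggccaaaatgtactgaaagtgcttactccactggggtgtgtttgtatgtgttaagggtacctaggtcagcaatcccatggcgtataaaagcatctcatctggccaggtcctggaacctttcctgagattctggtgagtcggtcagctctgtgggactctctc
Chil3: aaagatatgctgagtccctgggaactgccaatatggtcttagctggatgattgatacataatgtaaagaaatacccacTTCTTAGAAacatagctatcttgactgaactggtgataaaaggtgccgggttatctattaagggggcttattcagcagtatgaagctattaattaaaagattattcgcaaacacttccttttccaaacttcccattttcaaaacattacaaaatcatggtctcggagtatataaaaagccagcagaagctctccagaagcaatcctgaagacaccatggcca
Mgl2: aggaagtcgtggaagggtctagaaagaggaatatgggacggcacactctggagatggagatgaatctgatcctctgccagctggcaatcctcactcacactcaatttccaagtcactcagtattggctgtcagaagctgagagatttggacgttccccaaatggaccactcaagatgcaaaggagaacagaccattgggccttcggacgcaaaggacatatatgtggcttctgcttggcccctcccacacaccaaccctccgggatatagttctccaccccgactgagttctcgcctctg
Cd209a: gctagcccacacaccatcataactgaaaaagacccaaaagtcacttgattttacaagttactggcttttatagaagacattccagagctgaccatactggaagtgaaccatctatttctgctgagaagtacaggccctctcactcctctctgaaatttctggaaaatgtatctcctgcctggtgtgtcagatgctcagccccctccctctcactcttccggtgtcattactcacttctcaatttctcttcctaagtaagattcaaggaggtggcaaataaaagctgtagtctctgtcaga

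Of these 4 windows, that of Retnla held TTCACAAGAA at position -145 from the RefSeq start and that of Chil3 held TTCTTAGAA at position -172. The windows of Mgl2, Cd209a, Mrc1, Cd163 and both starts of Folr2 held neither motif. Of 27025 genes with windows of the same length 8.01% held the longer spacing, 9.55% the shorter and 16.6% either one, so 2 of 7 genes is a count to be read against that share. A match is a match of letters and is not shown to be bound.

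Levels differed widely between the genes, from an abundant receptor to transcripts near the limit of the counts. Per kilobase of exon, Mrc1, the mannose receptor that clears glycoproteins and collagen fragments, was highest at 57.8 ± 13.6 CPM per kb (SD, n = 24 libraries). Next came Clec10a at 28.2 ± 9.24, Cd163 at 23 ± 10.4, Retnla at 14.2 ± 13 and Folr2 at 7.64 ± 3.19 CPM per kb. The order was firm at the top, since Mrc1 exceeded Clec10a in 24 of 24 libraries. Clec10a exceeded Cd163 in 19, Cd163 exceeded Retnla in 21, Retnla exceeded Folr2 in 16 and Folr2 exceeded Chil3 in 20 libraries. The places of Folr2 and Chil3 are uncertain. Of the exons of Folr2, 975 bases overlap Gm10602, and 26.9% of the 50-base words of Chil3 occur in another gene. Chil3 at 4.68 ± 2.69 and Mgl2 at 4.13 ± 2.22 CPM per kb could not be ordered, each being the higher one in 12 libraries. Ccl24 at 2.02 ± 0.987 and Cd209a at 1.88 ± 0.728 CPM per kb were lowest and also without a clear order, with Ccl24 higher in 13 of 24 libraries. Cd209a rested on 12 to 55 counts per library and Ccl24 on 7 to 58, so counting error is a large part of their spread.

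The genes varied more between wounds than most genes. The median SD of log2 CPM over the 24 libraries was 0.617 for the 9 genes and 0.268 over all genes tested. Retnla had the widest range, its highest library being 28.8 times its lowest, and its SD of 1.16 exceeded that of 99.3% of genes. Chil3 followed with a ratio of 8.8, Mgl2 with 7.62 and Ccl24 with 7.27, and Mrc1 was the steadiest with 2.19. Most of that variation lay between wounds given the same bandage. Differences between the 5 groups held 16.2% to 21.4% of the variance of log2 CPM for 8 of the genes, where the median over all genes was 16.3%; the exception was Cd209a at 54.8%, a share above that of 99.8% of genes tested.

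**Figure D1:**
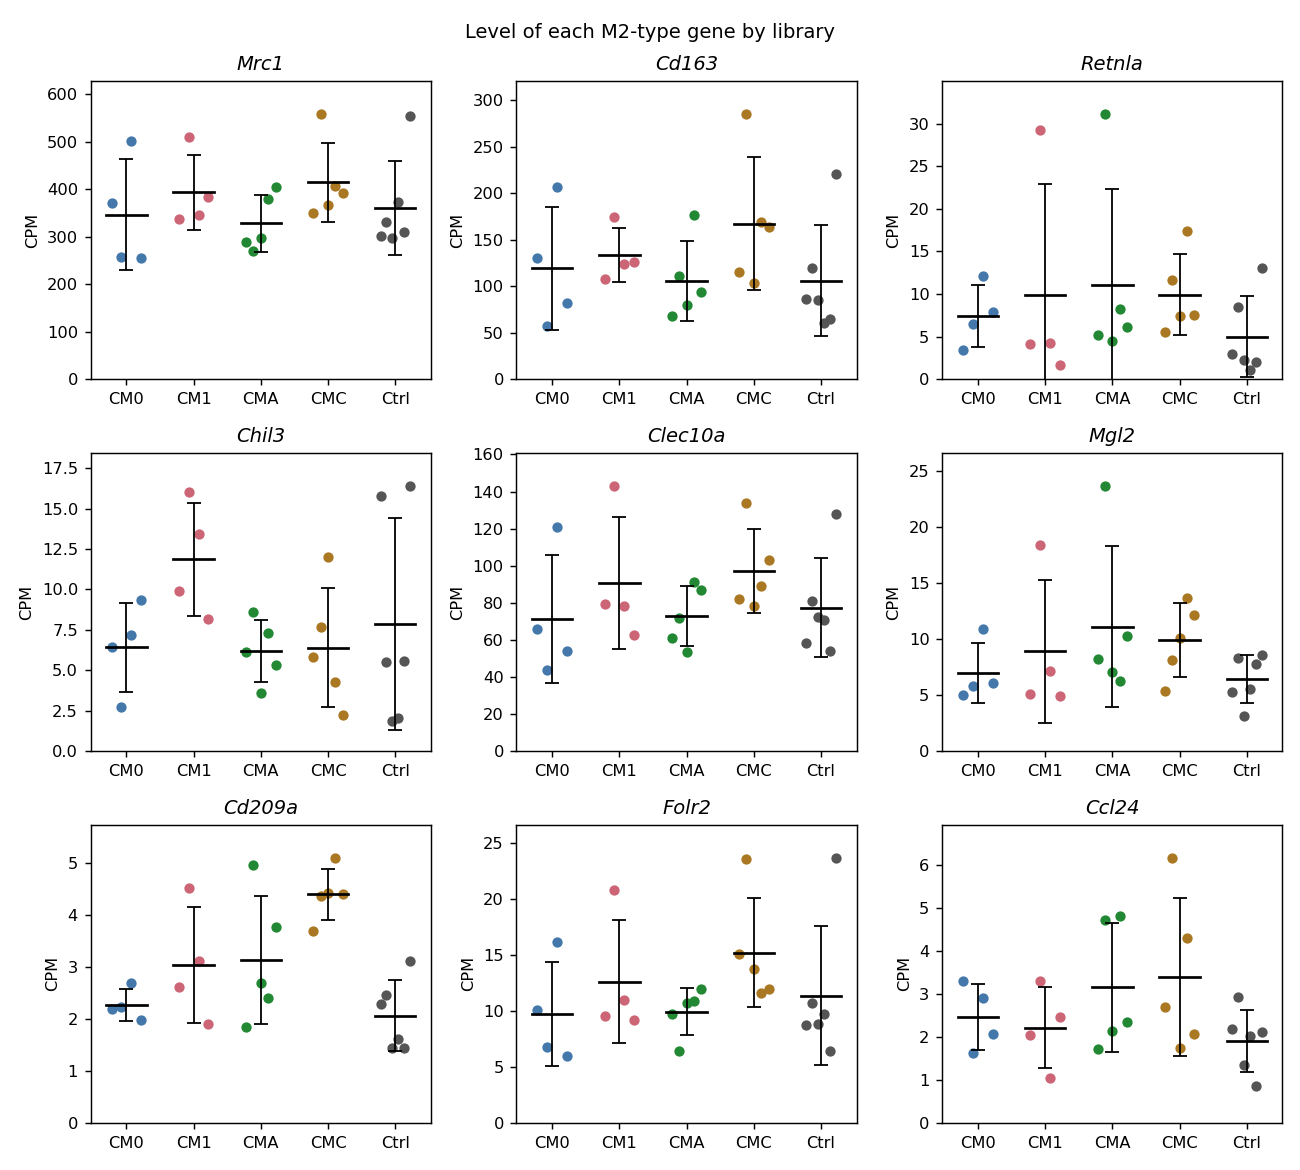
CPM of each of the 9 genes (vertical axes, each starting at 0) in every library, 1 point per library, grouped on the horizontal axes by bandage; black lines give the mean and the SD. The 5 CMC wounds lie at 3.7 to 5.1 CPM of Cd209a, above all Ctrl wounds, while single high libraries stand out for Retnla and Mgl2 in CM1 and CMA.

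No member passed the test across all genes. The edgeR quasi-likelihood test called 0 of the 9 at an adjusted p under 0.05 in each comparison of a medium with Ctrl, in the mean of the 4 media against Ctrl, between pairs of media and for any difference among the 5 groups, and in each of these it called 0% of all genes tested. DESeq2, which called 0.00259% of the genes it tested in CM0, CM1 and CMC against Ctrl and for any difference and 0% elsewhere, and limma with voom, which called 0% throughout, also called 0 of the 9. At an unadjusted p under 0.05 the count was 0 of 9 in CM0 against Ctrl (4.92% of all genes), 1 in CM1 against Ctrl (7.04%), 1 in CMA against Ctrl (6.61%), 2 in CMC against Ctrl (8.55%) and 1 in the mean of the media against Ctrl (9.42%). It was 1 in CMC against CM0 (3.72%) and 1 for any difference (4.65%). It was 0 in CM1 against CM0 (2.22%), CMA against CM0 (3.14%), CMA against CM1 (4%), CMC against CM1 (2.71%) and CMC against CMA (6.16%). In every count above 0 Cd209a was the gene, joined by Ccl24 in CMC against Ctrl. Fold changes against Ctrl were positive for 8 of 9 genes in CMC with a median log2 fold change of 0.62 and for 9 of 9 in CM1 with 0.33. They were positive for 5 of 9 in CM0 with 0.11 and for 4 of 9 in CMA with -0.01. Over all genes 48.4% were positive in CMC, 48.7% in CM1, 47.4% in CM0 and 46.7% in CMA, with a median of -0.01 in each. Without CM1 2 the changes in CM1 were negative for Mrc1, Retnla, Clec10a, Mgl2, Folr2 and Ccl24, at -0.61 to -0.03. The comparisons with Ctrl share the same 6 control libraries, and the 9 genes are not independent of one another.

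**Figure D2:**
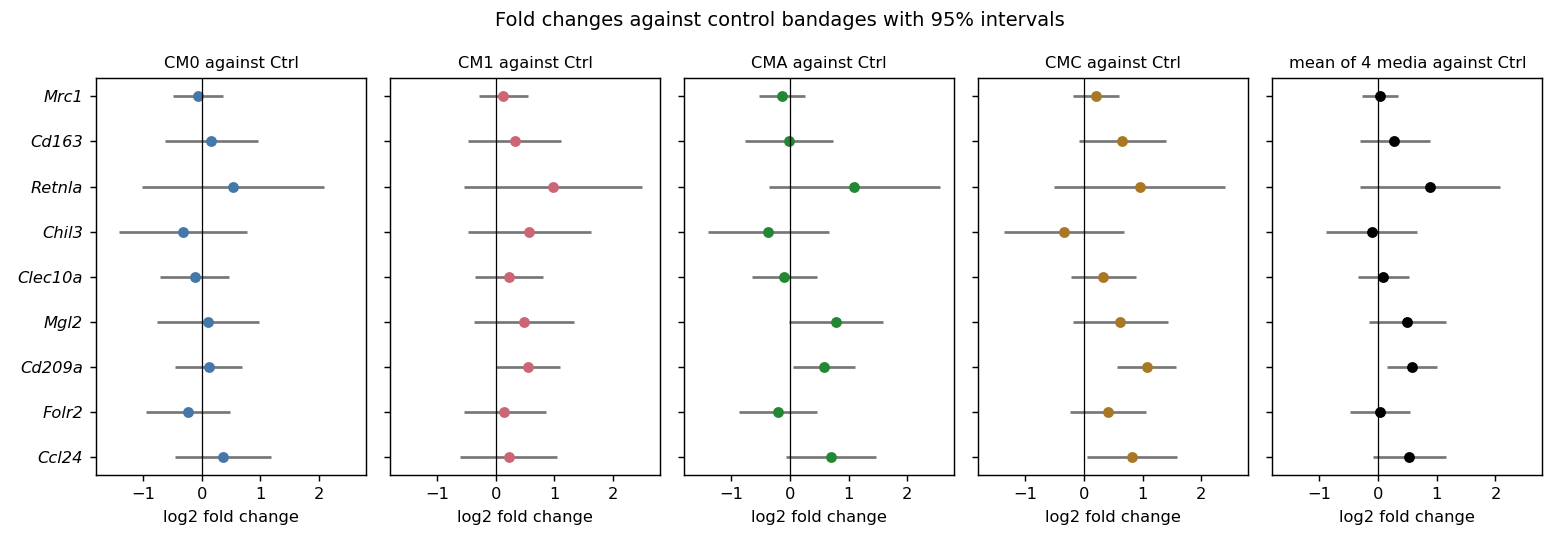
Log2 fold change against Ctrl from the edgeR fit (horizontal axes) for the 9 genes (rows) in CM0, CM1, CMA, CMC and the mean of the 4 media; points are estimates and grey lines 95% intervals. The interval of Cd209a in CMC against Ctrl runs from 0.56 to 1.57, and that of Retnla spans 0 in each panel.

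Cd209a, a mouse relative of the human receptor DC-SIGN that binds mannose-rich glycans on dendritic cells and some macrophages, had the largest share of its variance between the bandages among the 9 genes and the smallest p in CMC against Ctrl. It lies at chr8:3743397-3748984 on the minus strand, and 0% of its 50-base words occur in the exons of another gene. The CMC wounds had 3.7, 4.36, 4.42, 5.1 and 4.41 CPM, against a lowest of 1.45, a median of 1.96 and a highest of 3.12 CPM in Ctrl wounds. Every CMC library lay above every Ctrl library, which 0.232% of all genes tested also showed in that direction. The means were 4.4 ± 0.496 CPM in CMC (SD, n = 5) and 2.07 ± 0.672 CPM in Ctrl (SD, n = 6), from 33 to 51 and from 12 to 37 counts per library. On the log2 scale the fold change was 1.07, with an SE of 0.24 and a 95% interval from 0.56 to 1.57. The edgeR p was 0.000231 before adjustment, rank 10 of all genes tested, and 0.4 after it, so the gene was not called. The exact two-sided permutation test of the libraries gave p = 0.00433, where the smallest of 462 divisions is 0.00216; it was 1 of 36 such tests and is not adjusted. The adjusted p was 0.191 with DESeq2 and 0.247 with limma and voom.

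The other media gave values between these groups. The CM1 wounds had 2.62, 4.52, 3.11 and 1.9 CPM and the CMA wounds 1.84, 4.96, 2.7, 2.4 and 3.76 CPM, both overlapping Ctrl. Against Ctrl the log2 fold change was 0.55 in CM1 (SE 0.26, edgeR adjusted p = 0.702) and 0.58 in CMA (SE 0.25, edgeR adjusted p = 0.733). The CM0 wounds had 2.2, 2.22, 2.7 and 1.97 CPM, close to Ctrl with a log2 fold change of 0.12 (SE 0.27, edgeR adjusted p = 0.988). All CMC libraries lay above all CM0 libraries, which 0.838% of all genes tested also showed. The change was 0.95 on the log2 scale (SE 0.27, 95% interval 0.39 to 1.51, edgeR adjusted p = 0.998). CMC against CM1 gave 0.51 and CMC against CMA 0.48, with 95% intervals that both begin at -0.03, so neither pair was told apart. For any difference among the 5 groups Cd209a ranked 28 of all genes tested, with an edgeR adjusted p of 0.929.

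The pan-macrophage score, the mean log2 CPM of 19 markers such as Csf1r and C1qa, was 6.59 ± 0.23 in CMC (SD, n = 5) and 6.48 ± 0.26 in Ctrl (SD, n = 6), a difference smaller than either SD. With that score in the model the log2 fold change of Cd209a in CMC against Ctrl was 1.06 (SE 0.25, edgeR adjusted p = 0.566). The score of resident macrophage genes was 5.82 ± 0.34 in CMC and 5.46 ± 0.32 in Ctrl, that of dendritic cells 4.75 ± 0.12 in CMC and 4.56 ± 0.27 in Ctrl, and that of adipocytes 6.55 ± 0.41 in CMC and 6.22 ± 0.49 in Ctrl. With the adipocyte score in the model the change of Cd209a was 0.90 (SE 0.20, edgeR adjusted p = 0.378). The part of resident macrophages and of dendritic cells in the result was not tested. The resident macrophage list holds Cd209b, Cd209d, Cd209f and Cd209g, so its score is not separate from the relatives of Cd209a. Over all alternatives the fold change stayed between 0.90 and 1.23 on the log2 scale.

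The other CD209 genes lie beside Cd209a on chromosome 8 and encode similar lectins. Cd209g, the nearest in pattern of all genes tested (Pearson r = 0.87 with Cd209a over 24 libraries), had 2.8, 4.15, 4.42, 4.52 and 3.54 CPM in CMC wounds, against a lowest of 0.83, a median of 1.71 and a highest of 3.45 CPM in Ctrl wounds. The CMC and Ctrl values overlapped at their edges. In CMC against Ctrl its change was 1.04 on the log2 scale (SE 0.28, 95% interval 0.45 to 1.62, edgeR adjusted p = 0.546). The other media gave 0.81 in CMA, 0.61 in CM1 and 0.09 in CM0 (edgeR adjusted p 0.725, 0.706 and 0.989). In CMC against Ctrl the remaining 5 genes, Cd209b, Cd209c, Cd209d, Cd209e and Cd209f, had positive fold changes of 0.37 to 0.69, each with an interval that spans 0. Their Pearson r with Cd209a was 0.46 for Cd209c and 0.68 to 0.74 for the other 4. Picked after their values were seen, Cd209e gave 1.31 in CMA and Cd209f 0.67 in CM1 against Ctrl (edgeR unadjusted p 0.0166 and 0.0474). The CMA wounds had a lowest of 1.08, a median of 1.84 and a highest of 5.93 CPM of Cd209e. That gene had as few as 3 counts in a library. In the wider list of 19 tested C-type lectins of myeloid cells, 2 were higher and 0 lower in CMC against Ctrl at an unadjusted p under 0.05, where 3.77% of all genes were higher and 4.78% lower. EdgeR called 0 of the 19, and the median log2 fold change was 0.17, beside -0.01 over all genes. At an unadjusted p under 0.05 against Ctrl, 3 were higher and 0 lower in CM1 (median 0.19). In CMA it was 2 and 0 (median -0.01), and in CM0 0 and 0 (median 0.02). Over all genes 7.04%, 6.61% and 4.92% passed in either direction in CM1, CMA and CM0. Clec4n, which encodes the fungal receptor dectin-2, averaged 26.5 ± 4.57 CPM in CM1 (SD, n = 4) and 20.6 ± 1.09 CPM in CMC (SD, n = 5), against 17.2 ± 6.08 CPM in Ctrl (SD, n = 6), with log2 fold changes of 0.61 and 0.25 (edgeR adjusted p 0.695 and 0.77).

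Mrc1 and Cd163, receptors commonly used to stain M2-type macrophages, differed less between bandages than between wounds. Mrc1 (chr2:14229392-14332057, plus strand) had 371, 258, 502 and 256 CPM in CM0 wounds, 338, 509, 346 and 383 in CM1, 290.0, 271, 297, 380.0 and 405 in CMA and 350.0, 558, 366, 407 and 392 in CMC, against a lowest of 297, a median of 320.0 and a highest of 554 CPM in Ctrl wounds. Each medium overlapped Ctrl. Its largest fold change against Ctrl was 0.20 in CMC (95% interval -0.19 to 0.59, edgeR adjusted p = 0.789), and its mean over the media was 0.03 (-0.28 to 0.34), the narrowest intervals among the 9 genes. Cd163 (chr6:124304656-124330527, plus strand) had 115, 285, 104, 169 and 164 CPM in CMC wounds, against a lowest of 60.9, a median of 85.8 and a highest of 220.4 CPM in Ctrl wounds. All 5 CMC libraries lay above the Ctrl median, but Ctrl 6 exceeded 4 of them. Its log2 fold change was 0.65 (SE 0.36, 95% interval -0.09 to 1.40, edgeR adjusted p = 0.634). The other media gave 130.4, 57.8, 207 and 81.6 CPM in CM0, 108, 175, 124 and 126 in CM1 and 68, 111, 79.8, 177 and 93.9 in CMA, with log2 fold changes of 0.16, 0.33 and -0.01.

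Clec10a and Mgl2 encode the galactose-type lectins that bind terminal N-acetylgalactosamine or Lewis X sugars, and lie side by side on chromosome 11, Mgl2 at 70130329 to 70137550 and Clec10a at 70156197 to 70170834, with 18646 bases between them. They share 270 of their 50-base words, so some reads could be lost or split between them; 9.02% of the words of Clec10a and 13.1% of those of Mgl2 occur in another gene. Clec10a had 82.2, 134, 78.1, 89.3 and 103 CPM in CMC wounds, against a lowest of 54.2, a median of 71.6 and a highest of 128 CPM in Ctrl wounds. All CMC values exceeded the Ctrl median, and the groups overlapped. Its change was 0.33 on the log2 scale (SE 0.26, edgeR adjusted p = 0.746). In CM0, CM1 and CMA Clec10a ranged from 43.7 to 121, 62.4 to 143 and 53.5 to 91 CPM, with log2 fold changes of -0.12, 0.23 and -0.09 against Ctrl.

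Mgl2 was led by single wounds. It had 8.23, 23.7, 7.09, 6.25 and 10.3 CPM in CMA and 5.13, 18.4, 7.16 and 4.93 CPM in CM1, against a lowest of 3.11, a median of 6.65 and a highest of 8.6 CPM in Ctrl wounds. In each of these media 1 library stood far above the rest. CMA against Ctrl gave 0.78 on the log2 scale (SE 0.39, 95% interval -0.02 to 1.59, edgeR adjusted p = 0.733), and 0.31 without CMA 2. In CM1 it was 0.49 (SE 0.41), and -0.17 without CM1 2. The CMC wounds, with 5.38, 8.18, 10.1, 13.7 and 12.2 CPM, gave 0.62 (SE 0.39, edgeR adjusted p = 0.673), and the CM0 wounds, at 5.03 to 10.9 CPM, gave 0.11. With the adipocyte score in the model the log2 fold changes of Mgl2 were 0.53 in CMA, 0.22 in CM1, 0.33 in CMC and 0.00 in CM0.

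Folr2, the folate receptor of resident macrophages (chr7:101839988-101857194, minus strand), had 15.1, 23.6, 13.8, 11.6 and 12 CPM in CMC wounds, against a lowest of 6.42, a median of 9.27 and a highest of 23.7 CPM in Ctrl wounds. The CMC values all exceeded the Ctrl median while Ctrl 6 held the highest level of any library. In CMC its change was 0.41 on the log2 scale (SE 0.31, 95% interval -0.24 to 1.06, edgeR adjusted p = 0.731). In CM0, CM1 and CMA the ranges were 6 to 16.2, 9.19 to 20.8 and 6.42 to 12 CPM, and the fold changes -0.23, 0.15 and -0.20. The exons of Folr2 share 975 bases with Gm10602 on the opposite strand, and reads without strand cannot separate them, so its level is uncertain.

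Retnla encodes RELM-alpha, a secreted protein that alternatively activated mouse macrophages release and that takes part in collagen assembly in skin repair. It lies at chr16:48842551-48844461 on the plus strand. Its level was 3.39, 6.46, 12.1 and 7.87 CPM in CM0 wounds, 4.1, 29.3, 4.25 and 1.68 in CM1, 5.16, 31.1, 4.5, 8.29 and 6.1 in CMA and 5.5, 11.6, 7.45, 17.4 and 7.51 in CMC, against a lowest of 1.08, a median of 2.6 and a highest of 13.1 CPM in Ctrl wounds. All CM0, CMA and CMC libraries and 3 of 4 in CM1 exceeded the Ctrl median, yet every group overlapped Ctrl. The log2 fold changes were 0.54 (SE 0.75), 0.97 (SE 0.73), 1.10 (SE 0.70) and 0.95 (SE 0.70) in CM0, CM1, CMA and CMC, and 0.89 in the mean of the media (95% interval -0.30 to 2.08, edgeR adjusted p = 0.625). They rested on few wounds: without CM1 2 the value in CM1 was -0.61, and without CMA 2 that in CMA was 0.23. Without Ctrl 6, the highest control, the mean of the media was 1.49.

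Chil3, which encodes the secreted chitinase-like protein Ym1 (chr3:106147554-106167564, minus strand), was highest on average in CM1. The CM1 wounds had 9.91, 16, 13.4 and 8.18 CPM, and the CMA wounds had 6.14, 8.59, 3.6, 7.33 and 5.35 CPM. The CMC wounds had 5.83, 7.65, 12, 4.29 and 2.25 CPM, and the CM0 wounds 6.41, 2.73, 7.16 and 9.34 CPM. In Ctrl wounds the lowest was 1.87, the median 5.54 and the highest 16.4 CPM. The CM1 values overlapped those of every other group, and Ctrl wounds spanned nearly the whole range. The log2 fold change was 0.57 in CM1 against Ctrl (SE 0.50, edgeR adjusted p = 0.801), -0.95 in CMA against CM1 (95% interval -2.05 to 0.16, adjusted p = 0.995) and -0.91 in CMC against CM1 (-2.01 to 0.20, adjusted p = 1). The neutrophil score was also highest on average in CM1, at 3.71 ± 0.79 (SD, n = 4), beside 2.72 ± 0.79 in CMA, 2.96 ± 0.73 in CMC, 2.76 ± 1.13 in CM0 and 2.49 ± 1.06 in Ctrl. So was the monocyte score, at 4.07 ± 0.17 in CM1, beside means of 3.59 to 3.88 in the other groups. In CM1 2, the CM1 wound with most Chil3, the neutrophil score was 2.65, the lowest of that group. The part of either score in the levels of Chil3 was not tested. Of the 50-base words of Chil3, 26.9% occur in another gene, chiefly Chil4 and Gm6522, so its counts are uncertain.

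Ccl24 encodes eotaxin-2, the chemokine by which such macrophages draw in eosinophils through the receptor CCR3, and lies at chr5:135569937-135573049 on the minus strand. It had 2.69, 6.16, 1.75, 4.29 and 2.07 CPM in CMC and 1.72, 4.72, 2.14, 4.81 and 2.35 CPM in CMA wounds, against a lowest of 0.848, a median of 2.07 and a highest of 2.93 CPM in Ctrl wounds. In each medium 2 wounds exceeded all controls and the others lay among them. Against Ctrl the log2 fold change was 0.82 in CMC (SE 0.37, 95% interval 0.06 to 1.58, edgeR adjusted p = 0.576) and 0.71 in CMA (SE 0.37, edgeR adjusted p = 0.733). With 1 library left out at a time, the value in CMC ran from 0.49 without CMC 2 to 0.98 without CMC 3. The log2 fold change was 0.37 in CM0, at 1.62 to 3.29 CPM, and 0.22 in CM1, at 1.04 to 3.29 CPM. The receptor gene Ccr3 averaged 0.683 ± 0.45 CPM in CMC and 0.892 ± 0.777 CPM in Ctrl. Most genes that define eosinophils were too low to test, with 13 counts of the eosinophil peroxidase gene Epx, 34 of the granule protein gene Prg2 and 112 of the receptor gene Siglecf in all libraries together. Adgre4, which other myeloid cells also carry, was tested and had 2.58 to 6.2 CPM. Ccl11, the other eotaxin, which fibroblasts produce, had 18.8, 39.5, 15, 30.2 and 17.8 CPM in CMC wounds, against 7.15 to 17.6 CPM in Ctrl wounds (SE of the log2 fold change 0.35, edgeR adjusted p = 0.547), and was among the 3 genes whose pattern over libraries was most like that of Ccl24 (Pearson r = 0.77).

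The correlations among the 9 genes were highest within 2 blocks, which were chosen after these values were seen. Over the 24 libraries Mrc1, Cd163, Clec10a and Folr2 varied together, with Pearson r of log2 CPM between 0.76 for Cd163 and Folr2 and 0.90 for Mrc1 and Folr2. For the last pair Spearman's rho was 0.82, both permutation p were 1e-05, the smallest that 100000 resamples give, and the adjusted p over 36 pairs were 5.14e-05 and 7.2e-05. Without the 2 libraries farthest from the median of Mrc1, r was 0.84. Retnla, Mgl2 and Cd209a formed the second block, with r = 0.80 for Retnla and Mgl2 (rho 0.78), 0.77 for Retnla and Cd209a (rho 0.73) and 0.74 for Mgl2 and Cd209a (rho 0.73), each with an adjusted permutation p of 8e-05 or less for r. Without the 2 farthest libraries these were 0.77, 0.71 and 0.68. As deviations from the group means r was 0.72 to 0.89 in the first block and 0.77 to 0.82 in the second, so the relations held among wounds given the same bandage.

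The blocks were not separate. Of 12 pairs between them, with r from 0.26 to 0.59, 6 passed an adjusted permutation p of 0.05. Cd209a gave r = 0.59 with Cd163, 0.59 with Clec10a and 0.53 with Folr2 (adjusted permutation p 0.00737, 0.00737 and 0.018), and Retnla gave 0.58 with Cd163 and 0.56 with Clec10a (0.00838 and 0.0102). Without the 2 farthest libraries r was 0.74 for Cd209a and Folr2 and 0.69 for Retnla and Clec10a, as high as some values within the second block. Between Mgl2 and Mrc1, Cd163 or Folr2 r was 0.26 to 0.36 with adjusted permutation p of 0.11 or more, though rho reached 0.45 for Mgl2 and Folr2 (adjusted permutation p = 0.0452). The neighbouring genes Clec10a and Mgl2 fell into different blocks, with r = 0.46 (adjusted permutation p = 0.0469), and 0.33 without the 2 farthest libraries. Ccl24 was nearest to Cd163 at r = 0.64 (adjusted permutation p = 0.00252). Chil3 was tied to none of the other 8 past the threshold, with r from 0.14 for Ccl24 to 0.38 for Cd163 (adjusted permutation p = 0.101 or more).

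**Figure D3:**
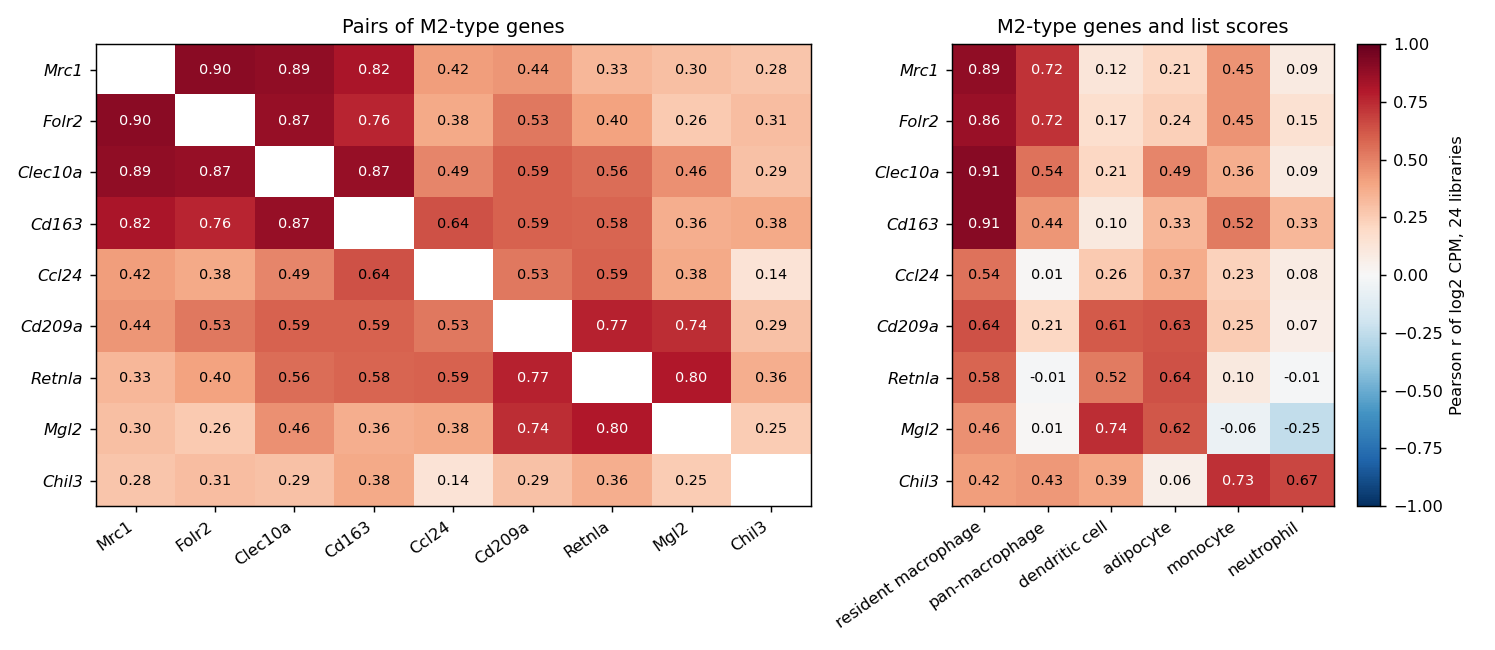
Pearson r of log2 CPM over the 24 libraries for pairs of the 9 genes (left) and for each gene with the mean log2 CPM of 6 marker lists (right), from blue at -1 to red at 1. Mrc1, Folr2, Clec10a and Cd163 form a dark square at 0.76 to 0.90 and share r of 0.86 to 0.91 with resident macrophage genes, and Chil3 is darkest in the monocyte and neutrophil columns, at 0.73 and 0.67.

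Marker lists divided the genes in part along the same line. Correlations were computed for all 9 genes and 19 lists, 171 relations in all, with p-values adjusted over them. The score of 22 tested resident macrophage genes, among them Lyve1, F13a1 and Selenop and none of the 9, gave r = 0.89 with Mrc1, 0.91 with Cd163, 0.91 with Clec10a and 0.86 with Folr2, each with an adjusted permutation p of 0.000427. Against the pan-macrophage score the 4 gave 0.72, 0.44, 0.54 and 0.72. The resident macrophage score was also tied to Cd209a, at r = 0.64, and to Retnla, at 0.58 (adjusted permutation p 0.00544 and 0.0153), and gave 0.46 with Mgl2 (0.0695). That list holds Cd209b, Cd209d, Cd209f and Cd209g, whose r with Cd209a was 0.74 to 0.87, so the tie of Cd209a is in part with its own relatives. With the pan-macrophage score Retnla and Mgl2 gave r of -0.01 and 0.01. Without the 2 libraries farthest from the median of that score these values were 0.20 and 0.40. Retnla and Mgl2 followed adipocyte genes at 0.64 and 0.62 (adjusted permutation p 0.0053 and 0.0078), as Cd209a did at 0.63 (0.0078) and, of the first block, Clec10a at 0.49 (0.0455). Mgl2 had its highest r with dendritic cell genes, at r = 0.74 (adjusted permutation p = 0.0012). Without the 2 libraries farthest from the median of the dendritic cell score r was 0.60. The rest of the second block was tied to that score too, Cd209a at 0.61 (0.00544) and Retnla at 0.52 (0.0324). For Retnla rho was 0.40 (0.127). With lymphatic endothelial genes r was 0.63 for Mgl2 (0.00982), 0.50 for Retnla (0.043) and 0.30 for Cd209a (0.273). Chil3 followed monocyte genes at 0.73 (adjusted permutation p = 0.00155), other alternative activation genes at 0.70 (0.00242), neutrophil genes at 0.67 (0.00417), the IL-4 and IL-13 pathway at 0.66 (0.00504) and C-type lectins at 0.66 (0.00289). It also gave 0.61 with M1-type macrophage genes (0.0106) and -0.65 with hair follicle genes (0.00494). All points of these relations share their library and its mixture of cells, and which cells carried the transcripts was not tested.

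**Figure D4:**
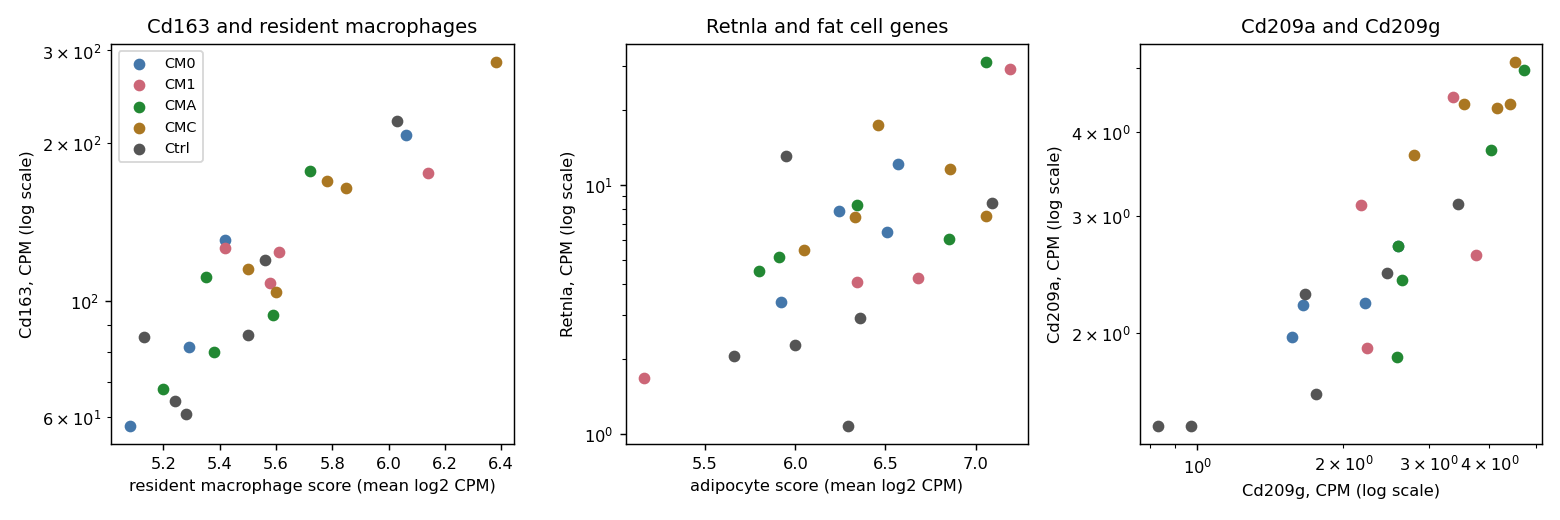
Each point is 1 library, coloured by bandage: Cd163 against the resident macrophage score (r = 0.91), Retnla against the adipocyte score (r = 0.64) and Cd209a against Cd209g (r = 0.87), with CPM on log axes and scores as mean log2 CPM. The 2 wounds above 29 CPM of Retnla, 1 each from CM1 and CMA, have adipocyte scores of 7.19 and 7.06, and the 5 CMC wounds lie at the upper end for Cd209a.

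The genes whose pattern over the 24 libraries was nearest to each member reflect these ties. For Mrc1 they were Stard8, the chemokine gene Ccl6 and Csf1r (Pearson r 0.93, 0.92 and 0.92), and for Folr2 Ccl6 and the complement genes C1qc and C1qa (0.93, 0.90 and 0.89). Among the genes near Cd163 were Fcgrt and the complement gene C4b (0.91 and 0.90), and Clec10a was nearest to Selenop, Reps2 and Fcna (0.88, 0.88 and 0.87). Retnla was nearest to Gsn, Cd209e and the fat cell gene Cfd (0.80, 0.76 and 0.76), and Mgl2 to Cd209e, Duox2 and Psmb8 (0.87, 0.79 and 0.78). Cd209a was nearest to Cd209g, Gpx4 and Inmt (0.87, 0.79 and 0.78), Chil3 to Cytip, Emb and the tissue factor gene F3 (0.81, 0.77 and 0.77), and Ccl24 to Ms4a8a, Gabra3 and Ccl11 (0.79, 0.77 and 0.77). These are among the highest of 18978 values each and are given as a description.

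Upstream, the ligands of alternative activation were barely detected. Il4 had 176 counts over all libraries together and at most 14 in 1 library, and Il13 had 59 and at most 7, so neither was tested. The shared receptor gene Il4ra was abundant, at 195 ± 62.5 CPM in CMC (SD, n = 5) and 147 ± 70.1 CPM in Ctrl (SD, n = 6), as was Stat6 at 138 ± 7.84 CPM in CMC and 125 ± 12.2 CPM in Ctrl. Of 16 tested genes of the IL-4 and IL-13 pathway 0 were called in any comparison by edgeR. At an unadjusted p under 0.05, 3 were higher and 0 lower in CMC against Ctrl (median log2 fold change 0.18, -0.01 over all genes), 1 was higher in CM1 and 1 in CMA, and in CM0 1 was higher and 1 lower. Over all genes 3.77% were higher in CMC against Ctrl, and 7.04% in CM1, 6.61% in CMA and 4.92% in CM0 passed in either direction. The 1 of 16 in CM1 and in CMA is near that share. The 3 of 16 in CMC and the 2 of 16 in CM0 are above it, on few genes. Klf4, a transcription factor that works with STAT6 in mouse macrophages and is also made in epidermis, averaged 192 ± 47.2 CPM in CMA and 185 ± 23 CPM in CM0, against 128 ± 27.6 CPM in Ctrl (log2 fold changes 0.59 and 0.53, edgeR adjusted p 0.725 and 0.946). Il2rg, the shared cytokine receptor chain, averaged 4.9 ± 0.835 CPM in CMA and 8.29 ± 1.51 CPM in CM1, against 6.32 ± 1.19 CPM in Ctrl (log2 fold changes -0.37 and 0.39, edgeR adjusted p 0.733 and 0.707). Of 15 other tested genes that IL-4 raises in mouse macrophages 0 had an unadjusted p under 0.05 against Ctrl in any of the 4 media; their median log2 fold change was 0.05 in CMA and 0.04 in CMC. The 2 of them with the smallest p for any group difference were Il1rn, the antagonist of IL-1 receptors, and the cadherin gene Cdh1, also made in epidermis. Il1rn averaged 58.4 ± 16.8 CPM in CM1, 40.3 ± 10.3 in CM0, 45.2 ± 12.4 in CMA, 38 ± 12 in CMC and 45.2 ± 10.3 in Ctrl. Its log2 fold change in CM1 against Ctrl was 0.37 (edgeR adjusted p = 0.739). Cdh1 averaged 165 ± 42.7 CPM in CM1, 179 ± 11.9 in CM0, 208 ± 47.9 in CMA, 147 ± 16.5 in CMC and 157 ± 58.1 in Ctrl.

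A list of the response to IL-10 and glucocorticoid, the stimuli tied to the M2c state, was also tested gene by gene. Of its 20 tested genes, 6 were higher and 0 lower at an unadjusted p under 0.05 in CMC against Ctrl, where 3.77% of all genes were higher and 4.78% lower at that level, and 0 were called. Cebpd, a transcription factor gene induced by glucocorticoid, had 36.5, 69, 29.3, 33.3 and 34.1 CPM in CMC wounds, against 13.9 to 25.8 CPM in Ctrl wounds, with no overlap and a log2 fold change of 1.22 (edgeR adjusted p = 0.4). The clock and glucocorticoid target Per1 had 107 to 167 CPM in CMC and 63.1 to 104 CPM in Ctrl wounds, again with no overlap (log2 fold change 0.65, edgeR adjusted p = 0.546). In CMA it had 86.9 to 155 CPM and a log2 fold change of 0.49 (edgeR adjusted p = 0.725). Of all genes tested 0.232% lay wholly higher in CMC than in Ctrl. Cebpd and Per1 were picked from the list by their p for any group difference, so their lack of overlap is not separate evidence. The other 4, Fkbp5, Tsc22d3, Klf9 and Zbtb16, named after their values were seen, are also known glucocorticoid targets and had log2 fold changes of 0.46, 0.83, 0.33 and 0.78. The receptor genes Il10ra and Il10rb and Il10 itself were not among them, with log2 fold changes of -0.02, 0.19 and -0.16. Cd163 gave r = 0.75 with the score of this list and 0.73 with that of the IL-4 and IL-13 pathway (adjusted permutation p = 0.0012 for both), and both lists hold Il4ra.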

How the data were processed

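The values are raw gene counts per library as deposited by the authors. Per the labels' protocols, total RNA from snap-frozen wounds was depleted of ribosomal RNA and made into libraries with a kit that does not mark the strand. The submitters' processing notes name bcl2fastq 2.17, FastQC, cutadapt, STAR, featureCounts, DESeq2 and the genome build GRCm38 and do not state the annotation release. Symbols, coordinates and exon lengths came from GENCODE M21 on GRCm38, which named 54165 of 54232 identifiers; 297 of 298 entries of 19 gene lists were matched. Genes were filtered with filterByExpr, scaled with TMM and tested in 1 edgeR quasi-likelihood fit with robust dispersion over all 24 libraries, with Benjamini-Hochberg adjustment over 18978 genes and a threshold of 0.05. Log2 CPM used a prior count of 2. Scores of gene lists are means of log2 CPM over the tested genes. Fits were tested on simulated data. Alternatives were other scaling (RLE), no filter, DESeq2, limma with voom, fits of only the groups compared, a pan-macrophage or adipocyte score as covariate, and left-out libraries. No 2 libraries of a group were alike within sampling noise: chi-square per degree of freedom was 9.14 or more over 47 pairs. The 9 genes, the lists and the tests were chosen with earlier results of these data known. Besides the 9 genes, the text names the 2 with the smallest p for any group difference from each list described gene by gene and a few well-known members of lists used only as scores, the IL-4 and IL-13 pathway genes by level, and the 3 genes nearest in pattern to each member, of which 1 is not reported here. Software was R 4.3.3, edgeR 4.0.16, limma 3.58.1 and DESeq2 1.42.0.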

Additional observations from a re-analysis of the deposited data

Results flagged for a closer look

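Of 45 groups of libraries, 9 genes in 5 groups, 10 held a library that stood apart from the rest by Dixon's criterion at 95%. The criterion was applied to CPM and not to log2 CPM. Its rate by chance, about 1 group in 20, holds only for normally distributed values. Whether CPM meets that was not tested, so the 10 are not to be read as an excess over that rate. All 10 were the highest library of their group, and the genes are correlated, so they are not 10 separate events. Retnla at 29.3 CPM and Mgl2 at 18.4 CPM stood apart in CM1 2, with the next CM1 wounds at 4.25 and 7.16 CPM, and Folr2 stood apart in the same wound at 20.8 CPM, with the next at 11 CPM. In CMA 2 Retnla stood at 31.1 CPM and Mgl2 at 23.7 CPM, with the next CMA wounds at 8.29 and 10.3 CPM. These 2 wounds also had the highest adipocyte scores of their groups, 7.19 and 7.06, and the highest dendritic cell scores of all libraries, 4.93 and 5.00, while CM1 2 also had the highest resident macrophage and pan-macrophage scores of CM1, 6.14 and 6.80. The part of these cells in the result was not tested, and CMC 5 and Ctrl 2, with adipocyte scores of 7.06 and 7.09, had 7.51 and 8.43 CPM of Retnla. In Ctrl 6 Mrc1 stood at 554 CPM, Cd163 at 220.4 CPM, Clec10a at 128 CPM and Folr2 at 23.7 CPM, with the next Ctrl wounds at 374, 119.6, 80.9 and 10.7 CPM, and the resident macrophage score of that wound was the highest of its group at 6.03. Mrc1 at 558 CPM stood apart in CMC 2, with the next CMC wound at 407 CPM and a resident macrophage score of 6.38 in CMC 2, the highest of its group.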

How the results depend on the processing

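Under all alternatives run 0 of the 9 genes were called in any comparison. Of 45 fold changes against Ctrl (9 genes, 4 media and their mean), 22 kept their sign under every alternative and 23 did not; the cause was not tested beyond the libraries left out. With limma, voom and quality weights the sign of the log2 fold change turned for Chil3 in CM0 (0.11), Cd163 in CMA (0.17), Chil3 in CMA (0.09), Clec10a in CMA (0.01) and Chil3 in the mean of the media (0.29). With the pan-macrophage score as covariate the sign of the log2 fold change turned for Mrc1 in CM0 (0.06), Folr2 in CM0 (0.01), Mrc1 in CMA (0.01), Cd163 in CMA (0.21), Chil3 in CMA (0.01), Clec10a in CMA (0.06), Folr2 in CMA (0.08) and Chil3 in the mean of the media (0.02). With the adipocyte score as covariate the sign of the log2 fold change turned for Clec10a in the mean of the media (-0.02) and Folr2 in the mean of the media (-0.02). Without Ctrl 3, Ctrl 4 and CM1 3 together the sign of the log2 fold change turned for Cd163 in CM0 (-0.05), Mgl2 in CM0 (-0.11), Cd209a in CM0 (-0.06), Mrc1 in the mean of the media (-0.0036) and Folr2 in the mean of the media (-0.08). Leaving out 1 library at a time moved the log2 fold changes against Ctrl in CM0 as follows: Mrc1 -0.29 to 0.10, Cd163 -0.24 to 0.51, Chil3 -0.56 to 0.04, Clec10a -0.51 to 0.07, Mgl2 -0.19 to 0.23 and Folr2 -0.58 to 0.13. Leaving out 1 library at a time moved the log2 fold changes against Ctrl in CM1 as follows: Mrc1 -0.03 to 0.28, Retnla -0.61 to 1.58, Clec10a -0.09 to 0.43, Mgl2 -0.17 to 0.68, Folr2 -0.21 to 0.52 and Ccl24 -0.06 to 0.46. Leaving out 1 library at a time moved the log2 fold changes against Ctrl in CMA as follows: Mrc1 -0.22 to 0.02, Cd163 -0.27 to 0.34, Clec10a -0.18 to 0.11 and Folr2 -0.32 to 0.17. Leaving out 1 library at a time moved the log2 fold changes against Ctrl in CMC as follows: Chil3 -0.68 to 0.02. Leaving out 1 library at a time moved the log2 fold changes against Ctrl in the mean of the media as follows: Mrc1 -0.03 to 0.19, Chil3 -0.32 to 0.24, Clec10a -0.01 to 0.29 and Folr2 -0.08 to 0.40. The wound that gave the lowest or highest value was mostly Ctrl 6, CM0 3 or CM1 2. All other scalings and filters kept the direction of these 45 changes, as far as they could be computed; fits of only the groups compared give no value for the mean of the media. The correlation of Clec10a and Mgl2 ranged from 0.35 to 0.57 and lost its call in 18 alternatives, while those within the 2 blocks kept theirs. No paired analysis was possible because the labels give no replicate numbers and libraries were numbered only in deposit order. Depth limits Ccl24, Retnla and Cd209a most, with as few as 7, 8 and 12 counts in a library, and a missed threshold at these group sizes does not show that levels were alike.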
